A study of Mus musculus with 9 samples.

Results

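ATP-binding cassette (ABC) transporters and organic anion transporting polypeptides (the Slco carriers) were examined in sorted cells of mouse bile duct organoids. The set took every gene name of the deposited count files made of Abc, a subfamily letter from a to g and a number, or of Slco with its family code, apart from Abca1 and Abcg1. It holds 53 of 32137 gene names, 44 ABC genes and 9 Slco genes. Of these, 37 had enough counts to be tested (30 ABC and 7 Slco genes), and the other 16 had at most 17 counts in any library.

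The study measured RNA in 9 libraries of cells sorted by tdTomato fluorescence from differentiated bile duct organoids, all grown from 1 male mouse of mixed genetic background with the genotype Axin2CreERT2+/-; R26-LSL-tdTom+/-. In this animal a Cre recombinase that needs tamoxifen is made where the Wnt target gene Axin2 is on, and Cre switches on the red reporter. After an expansion phase of 2 to 4 days came 11 days of differentiation, and all organoids received 3 uM dexamethasone and 500 nM 4-OHT, the active form of tamoxifen, over the last 24 h. The study compared 3 kinds of cells, with 1 library each at passages 5, 6 and 10: tdTomato-negative cells without R-spondin 1 (untreated), tdTomato-negative cells after 100 ng/ml R-spondin 1 (Rspo1 Tom-) and tdTomato-positive cells after R-spondin 1 (Rspo1 Tom+). R-spondin 1 is a secreted protein that raises Wnt signalling. No group holds tdTomato-positive cells without R-spondin 1, so treatment and reporter state differ together between Rspo1 Tom+ and untreated cells. The line comes from a single animal, so p-values hold no spread between animals. With group and passage in the fit, those of group comparisons measure how evenly a difference repeats over the passages. Those of passage comparisons hold no spread between cultures of the same passage, since each passage was its own culture.

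ABC proteins bind ATP and use it to move a substrate across a membrane; most export drugs, bile salts, conjugates or lipids, some sit in mitochondria, peroxisomes or lysosomes, and subfamilies E and F have no membrane part and act on ribosomes. Slco proteins work in the other direction and carry organic anions such as bile salts, steroid conjugates and prostaglandins into cells. Duct cells line the bile ducts, modify bile, and are known to take up bile acids from it through the apical sodium-dependent carrier Slc10a2. Hepatocytes export bile salts through Abcb11, phospholipid through Abcb4, conjugates through Abcc2 and sterols through the Abcg5 and Abcg8 pair.

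Abcb1a and Slco2a1 were lower with R-spondin 1, and Abcd3 was lower too by a smaller amount. Abcb1b, the neighbour and close paralog of Abcb1a, was set apart by passage. No upstream sequence was matched for Abcc3, Slco3a1 or Slco5a1, on which the values below also turn. The upstream sequences of the first 4 members are shown. Each is the 250 bases before a RefSeq start, 5′ to 3′ on the gene's strand (GRCm38.p6), in lower case with CTTTGAA or CTTTGAT, the letters of the Wnt-responsive TCF/LEF sites, in capitals on either strand. The windows are chr5:8566841-8567090 (plus strand) for Abcb1a, chr5:8797897-8798146 (plus) for Abcb1b, chr9:103008237-103008486 (plus) for Slco2a1 and chr3:121815303-121815552 (minus) for Abcd3.
Abcb1a: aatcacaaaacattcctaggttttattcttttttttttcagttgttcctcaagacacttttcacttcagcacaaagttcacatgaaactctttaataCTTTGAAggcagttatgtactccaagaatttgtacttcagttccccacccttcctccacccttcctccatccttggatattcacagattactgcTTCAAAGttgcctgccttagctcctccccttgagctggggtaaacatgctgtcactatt
Abcb1b: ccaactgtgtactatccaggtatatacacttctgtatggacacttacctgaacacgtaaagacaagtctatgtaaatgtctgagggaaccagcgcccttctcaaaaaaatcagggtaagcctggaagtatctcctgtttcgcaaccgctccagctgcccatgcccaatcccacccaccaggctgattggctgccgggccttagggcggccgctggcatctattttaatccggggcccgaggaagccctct
Slco2a1: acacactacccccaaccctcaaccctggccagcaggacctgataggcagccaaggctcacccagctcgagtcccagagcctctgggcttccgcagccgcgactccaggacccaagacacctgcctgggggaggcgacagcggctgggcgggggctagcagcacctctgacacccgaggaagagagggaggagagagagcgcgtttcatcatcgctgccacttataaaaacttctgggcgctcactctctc
Abcd3: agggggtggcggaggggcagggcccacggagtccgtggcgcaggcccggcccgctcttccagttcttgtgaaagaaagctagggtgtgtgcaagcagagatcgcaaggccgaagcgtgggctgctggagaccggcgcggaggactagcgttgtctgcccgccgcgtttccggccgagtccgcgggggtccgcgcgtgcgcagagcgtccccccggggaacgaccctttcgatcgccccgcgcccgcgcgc
The Abcb1a window holds 2 matches, which begin 153 and 59 bases before the RefSeq start, and the other 3 windows hold none. That RefSeq start of Abcb1a lies 92986 bases before the gene's start in the GENCODE annotation, and the start of Slco2a1 lies 19775 bases inside the GENCODE gene, whereas the starts used for Abcb1b and Abcd3 are the same in both. Abcd3 has another RefSeq start 393 bases inside the gene, whose window is not shown and holds no match. GC content was 40.4% in the Abcb1a window, 52.8% for Abcb1b, 63.2% for Slco2a1 and 72.0% for Abcd3, against a median of 52.4% over all windows. RefSeq windows were matched for 41 members, and 4 of their 52 windows held a match (7.69%), close to the 7.48% of all 32851 windows. A match is a run of letters and shows no binding.

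Total counts were 23423979 to 37351448 per library. Duct markers were high throughout: 8 of 8 were tested, with a summed level of 6982 to 8773 CPM (counts scaled to library size by TMM) in untreated, 7028 to 9190 in Rspo1 Tom- and 5944 to 6133 in Rspo1 Tom+ libraries. The 10 hepatocyte markers summed to 164 to 545 CPM, most of it Ttr, and Cps1 and Cyp3a11 never passed 1 count. Summed markers of endothelium (0.288 to 0.812 CPM) and of fibroblasts (0.0798 to 0.950 CPM) were near 0; those of macrophages (45.6 to 68.1 CPM) came mainly from Csf1r, with Ptprc at 0 to 5 counts. The 6 proliferation markers were all higher in Rspo1 Tom+ cells than in either other group and summed to 34.9 to 94.3 CPM in untreated, 82.6 to 147 in Rspo1 Tom- and 386 to 684 in Rspo1 Tom+ libraries. Log2 fold changes of Rspo1 Tom- cells also moved with the GC content of the transcript: over the 37 members the rank correlation was 0.624 against untreated and -0.689 for Rspo1 Tom+ against Rspo1 Tom- cells (0.499 and -0.506 over all genes), and 0.0057 for Rspo1 Tom+ against untreated cells. For passage 10 against passage 5 it was 0.592 over the members and 0.161 over all genes. Values with an offset for GC content and length are given beside many of the results, not all. Where none is given for a named gene, its value is without the offset. The part of proliferation, or of GC content beyond that offset, in the members' values was not tested. These are bulk samples, in which fewer cells of a type and less RNA per cell cannot be told apart.

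By FPKM, which is per length and so can be compared between genes, Abcc3 was the highest member, with a mean of 146 over the 9 libraries; 399 genes of the files were higher. Next came Slco2a1 (50.2), Slco3a1 (48.8), Abcf1 (44.7), Abcf2 (36.5) and Abca3 (36.0). The library ranges of these 5 overlapped: Slco2a1 spanned 26.7 to 93.0 FPKM, Slco3a1 34.4 to 81.4, Abcf1 38.2 to 52.2, Abcf2 27.0 to 48.8 and Abca3 28.6 to 44.7. Abcc3 spanned 64.1 to 214 FPKM, and its lowest library, the Rspo1 Tom+ one of passage 6, lay inside the range of Slco2a1. Mean FPKM reached 1 in 26 members and 10 in 14.

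**Figure D1:**
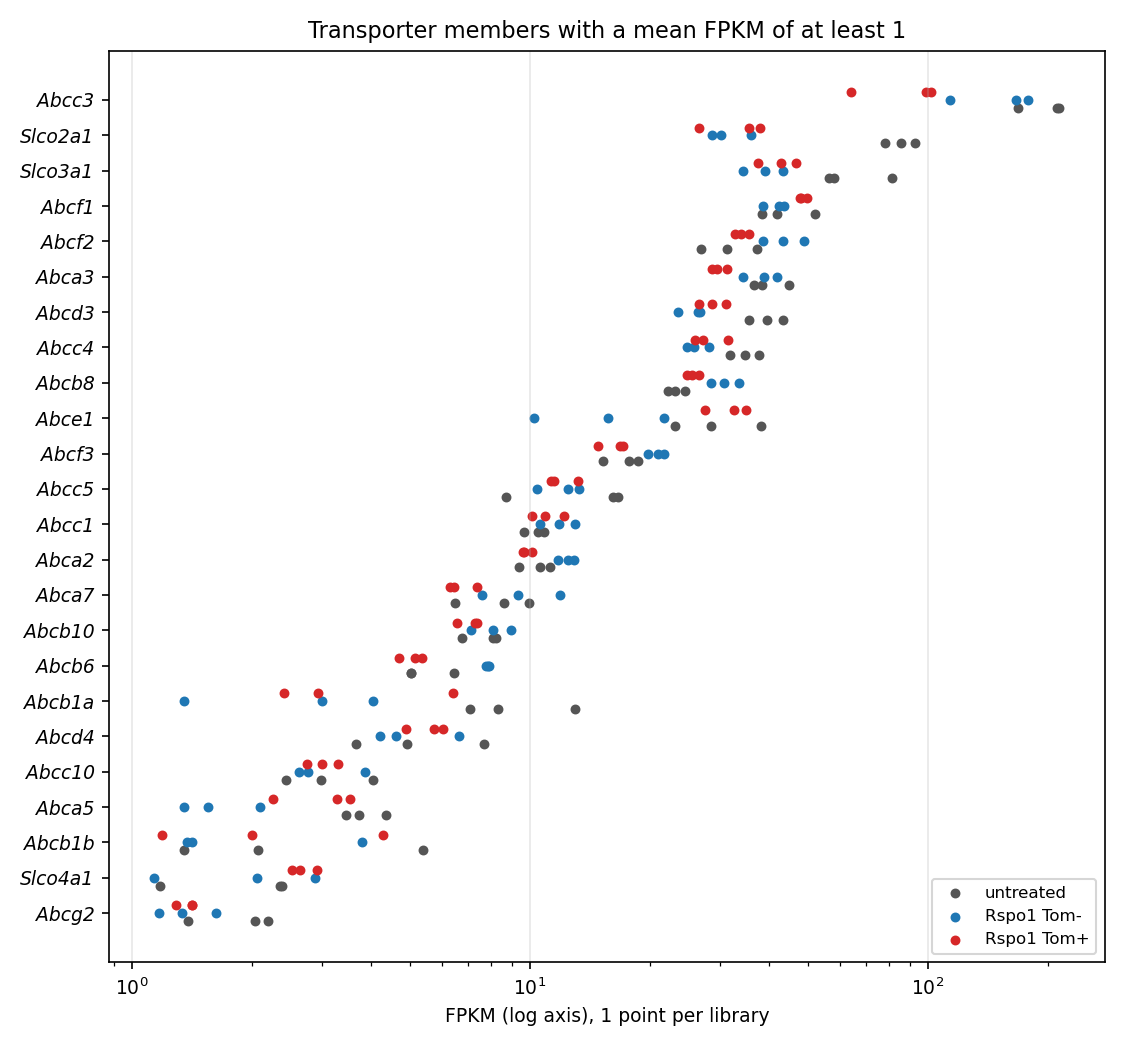
FPKM (log axis) of 24 members with a mean of at least 1, 1 point per library, coloured by group and ordered by mean. Abcc3 leads with a mean of 146; the untreated points of Slco2a1, Slco3a1 and Abcd3 lie to the right of both R-spondin 1 groups, and the Rspo1 Tom- points of Abca5 and Abce1 lie to the left of the other groups.

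The canalicular set of the hepatocyte was at or near the floor. Abcb11 had 0 to 5 counts per library, Abcb4 had 0 to 3, Abcc2 had 0 to 10 and Abcg8 had 0 to 11. Slco1a1, an uptake carrier of the hepatocyte, had 1 count in 1 library and 0 in the others, where a count of 0 allows up to 3 counts. None of these 5 was tested, and the hepatocyte carrier Slco1b2 was not analysed here. Abcg5, the partner of Abcg8, had 5, 5 and 32 counts in untreated, 9, 5 and 12 in Rspo1 Tom- and 11, 11 and 30 in Rspo1 Tom+ libraries, with the untreated and Rspo1 Tom+ libraries of passage 10 the highest. In all, 15 members had at most 15 counts in every library, and Abcc9, a regulatory subunit of potassium channels, had 0 in all 9.

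Rspo1 Tom+ and untreated cells differed in few members, mostly carriers that were lower with R-spondin 1. Slco2a1, Abcb1a and Abcc3 were lower by more than 1 on the log2 scale, Slco3a1 and Abcd3 by less, and Slco5a1 was higher. By edgeR's quasi-likelihood test with passage as a block and Benjamini-Hochberg adjustment over 17011 genes, 7 of 37 members passed the threshold of 0.05, 1 higher and 6 lower, against 13.2% of all genes tested (6.44% higher, 6.77% lower). The seventh was Abca8a, which falls below the level set for naming and is given with the lipid transporters. The median log2 fold change was -0.16 over the members and -0.0017 over all genes. The libraries of the compared groups did not overlap for 11 members, against 23.2% of all genes. Without the passage block 3 of the 7 calls passed, those of Slco2a1, Abcc3 and Slco5a1, beside 886 genes in place of 2247. With the GC and length offset 9 members passed, 1 higher and 8 lower, against 15.7% of genes. Without the Rspo1 Tom+ library of passage 6, 4 members passed.

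In Rspo1 Tom- against untreated cells Slco2a1, Abcb1a, Slco3a1, Abcd3, Abcc3 and Abcc4 were lower after R-spondin 1, as were Abca5 and Abce1, and Abcb6, Abcf2 and Abcb8 were higher by less than 0.5 (log2). The count was 14 of 37, 3 higher and 11 lower, against 35.5% of all genes (15.5% higher, 20.0% lower), so the members were called about as often as genes at large. Higher genes made up 43.8% of all calls and 54.2% with upper-quartile scaling, where 17 members passed, 6 higher and 11 lower. The median log2 fold change was -0.20 over the members and -0.0086 over all genes, and 16 members did not overlap, against 36.3%. With the GC and length offset 9 members passed, 1 higher and 8 lower, against 23.0% of genes (8.61% higher, 14.4% lower), and 7 of them were among the 14. A fit of the 6 compared libraries gave 9 members (14 in such a fit of Rspo1 Tom+ against Rspo1 Tom- cells), and without the Rspo1 Tom- library of passage 5 or of passage 10 there were 8 and 7.

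Rspo1 Tom+ against Rspo1 Tom- cells compares the 2 reporter states after the same treatment. Abcc3 was lower and Slco5a1 higher in Rspo1 Tom+ cells. Abce1, Abca5 and Slco4c1 were higher too, and their transcripts have 38.8% to 40.3% GC. The count was 11 of 37, 6 higher and 5 lower, against 38.9% of all genes (21.5% higher, 17.4% lower). Upper-quartile scaling gave 14 members, 5 higher and 9 lower, and size factors of the DESeq2 kind gave 13, 5 higher and 8 lower. The median log2 fold change was 0.08 over the members and 0.03 over all genes, and 16 members did not overlap, against 45.2%. With the offset 8 members passed, 4 in each direction, against 23.7% of genes (14.9% higher, 8.74% lower), and 5 of them were among the 11. Without the passage block 7 members passed; without the Rspo1 Tom- library of passage 10 there were 6, without the Rspo1 Tom+ library of passage 5 there were 6, and without that of passage 10 there were 7. The 3 comparisons share libraries in pairs, so their values are set side by side and not counted against each other.

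**Figure D2:**
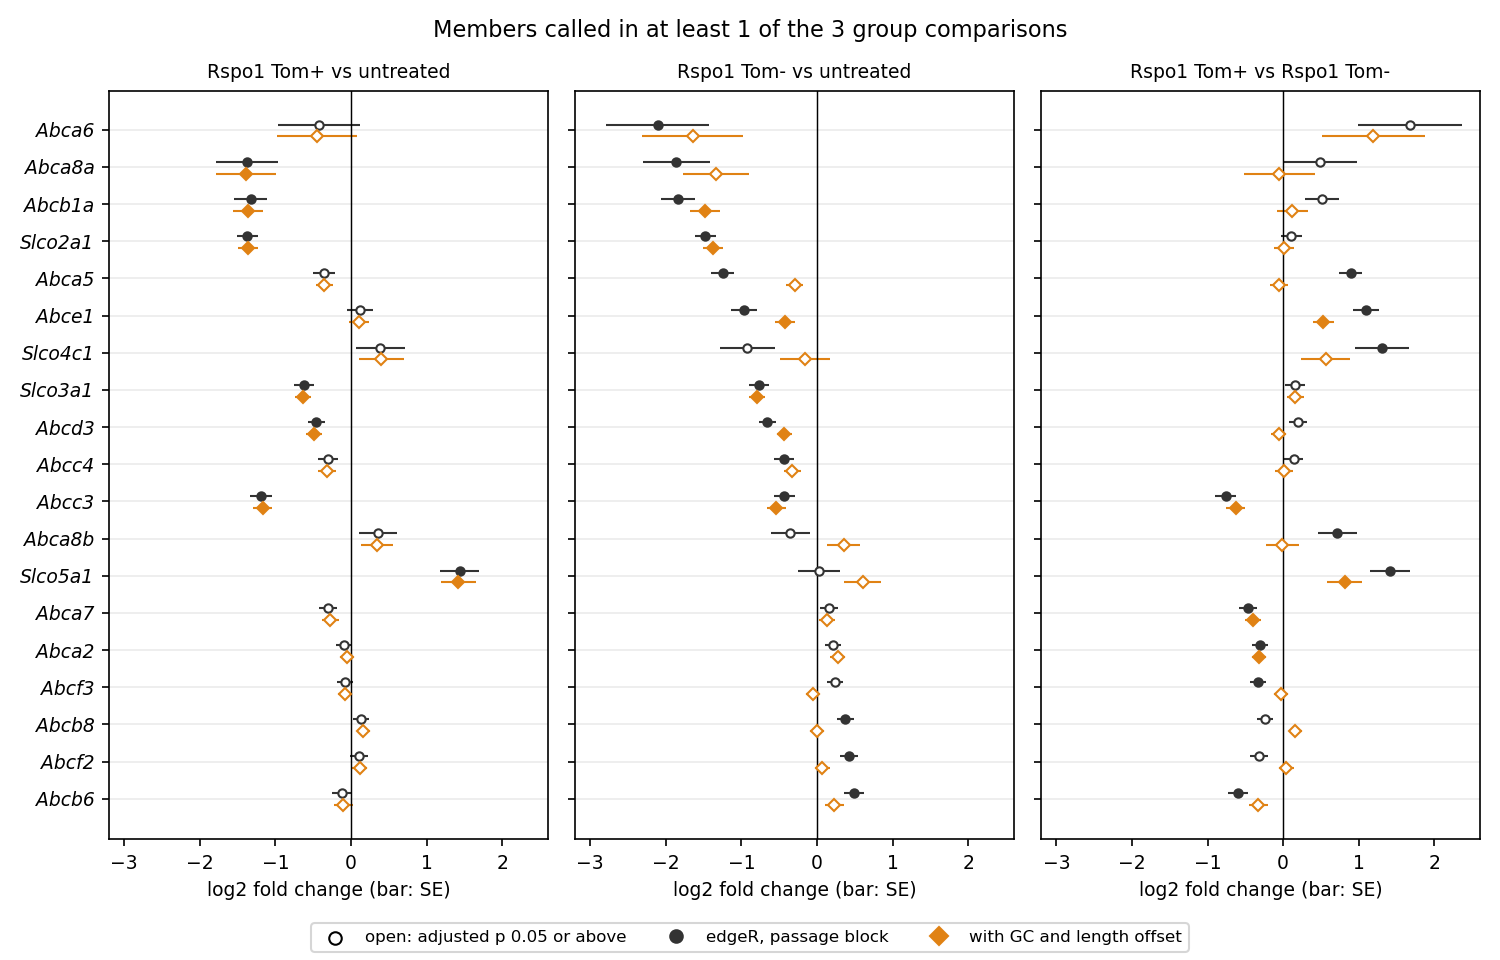
Log2 fold changes (bars, SE) of 19 members called in at least 1 group comparison, black without and orange with the GC and length offset; filled symbols passed an adjusted p of 0.05. Slco2a1, Slco3a1, Abcd3 and Abcc3 keep their place left of 0 in both R-spondin 1 groups with the offset, while Abca5 and Abce1 move toward 0 in the comparisons with Rspo1 Tom- cells.

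Among the 9 uptake carriers 7 were tested. Slco2a1 (ENSMUSG00000032548, chromosome 9, 102988712 to 103096002, plus strand, GRCm38) takes up prostaglandins. Its level was 563, 621 and 674 CPM in the untreated libraries of passages 5, 6 and 10, 209, 204 and 258 CPM in the Rspo1 Tom- and 255, 190.3 and 279 CPM in the Rspo1 Tom+ ones. All 3 untreated libraries were above all 6 libraries with R-spondin 1, and the 2 R-spondin 1 groups overlapped. The log2 fold change was -1.37 (SE 0.14, edgeR adjusted p = 7.78e-05) in Rspo1 Tom+ and -1.48 (SE 0.14, edgeR adjusted p = 0.000138) in Rspo1 Tom- against untreated cells. The difference within each passage was -1.71 to -1.14 and -1.60 to -1.38. Both calls stood in all 13 alternatives and were close to the same with the offset (-1.37 and -1.38). Rspo1 Tom+ against Rspo1 Tom- cells gave 0.10 (edgeR adjusted p = 0.580).

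Slco3a1 (ENSMUSG00000025790, chromosome 7, 74275419 to 74554780, minus strand) is a broadly expressed carrier of prostaglandins, thyroid hormone and other anions. It stood at 271, 380.4 and 264 CPM in untreated, 153, 198 and 180.1 CPM in Rspo1 Tom- and 198, 215 and 177 CPM in Rspo1 Tom+ libraries. The lowest untreated library was above every library with R-spondin 1. The log2 fold change was -0.77 (SE 0.13, edgeR adjusted p = 0.00147) in Rspo1 Tom- and -0.62 (SE 0.13, edgeR adjusted p = 0.00983) in Rspo1 Tom+ against untreated cells, and -0.94 to -0.55 and -0.82 to -0.45 within passages. The second call was lost without the Rspo1 Tom+ library of passage 6 or 10 (edgeR adjusted p = 0.0891 and 0.0728) and without the passage block (0.0665). With the offset the values were -0.79 and -0.63.

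Slco5a1 (ENSMUSG00000025938, chromosome 1, 12866549 to 12992650, minus strand) encodes a member of the family whose substrates are little known. Its level was 2.25, 1.57 and 2.07 CPM in untreated, 1.81, 2.88 and 1.44 CPM in Rspo1 Tom- and 5.56, 5.50 and 5.04 CPM in Rspo1 Tom+ libraries, from 34 to 226 counts. Each Rspo1 Tom+ library was above all 6 others, which overlapped between groups. Slco5a1 was higher in Rspo1 Tom+ than in untreated cells by 1.44 (SE 0.26, edgeR adjusted p = 0.00369) and than in Rspo1 Tom- cells by 1.41 (SE 0.26, edgeR adjusted p = 0.00231). Within passages the values were 1.26 to 1.77 and 0.92 to 1.76, and both calls stood in all 13 alternatives. With the offset the second value was 0.81 (edgeR adjusted p = 0.0296), and Rspo1 Tom- against untreated cells moved from 0.023 to 0.60, neither past the threshold (edgeR adjusted p = 0.958 and 0.101). Proliferation markers were high in the same 3 libraries; their part in this result was not tested.

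**Figure D3:**
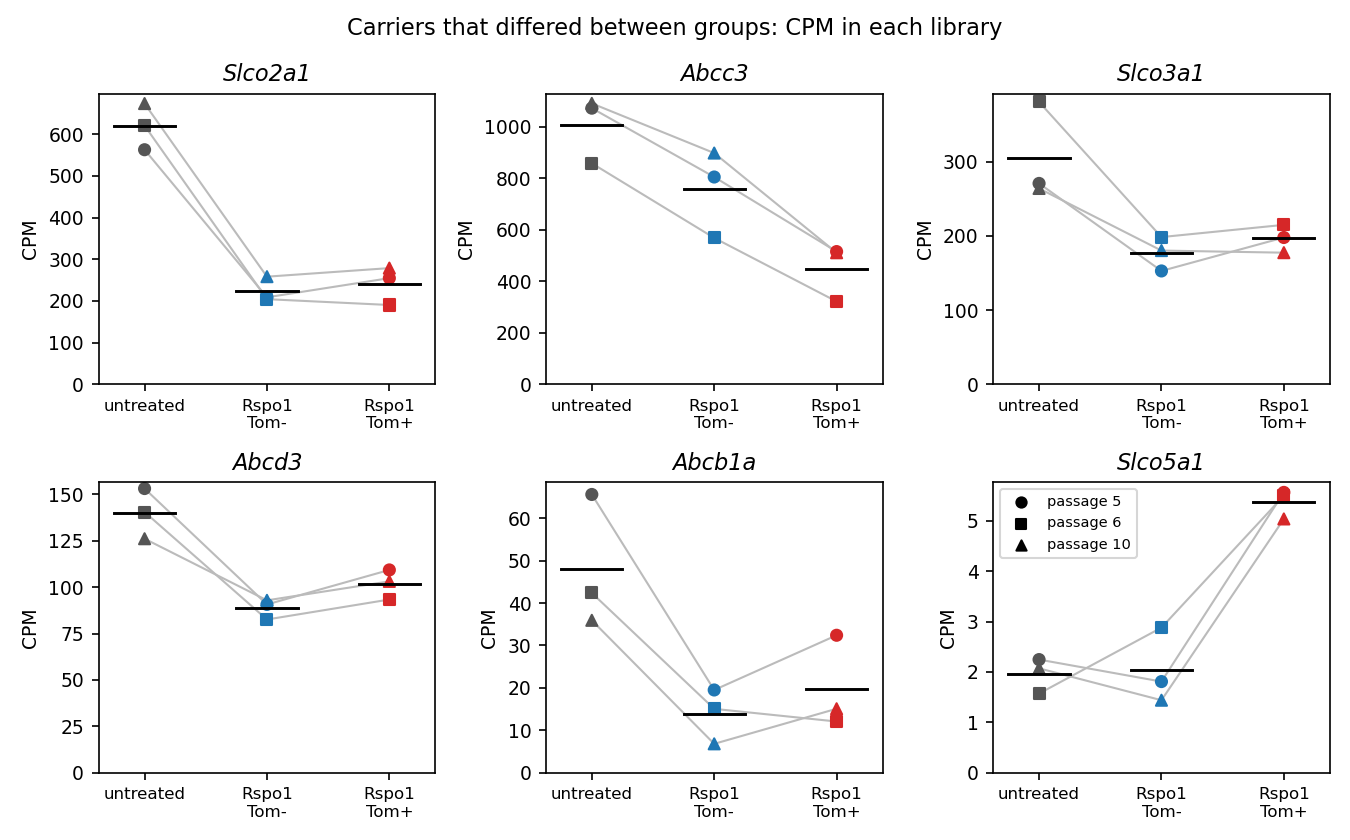
CPM of 6 members in each library; grey lines join libraries of 1 passage, horizontal bars are group means, and the axes start at 0. Untreated libraries are highest for Slco2a1, Slco3a1, Abcd3 and Abcb1a, Abcc3 falls to 515, 322 and 511 CPM in the Rspo1 Tom+ libraries, and Slco5a1 is above 5 CPM only in those.

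The other uptake carriers were low. Slco4c1, a carrier described in the kidney, was at 1.23, 1.27 and 1.55 CPM in untreated, 0.905, 0.905 and 0.339 in Rspo1 Tom- and 2.04, 1.52 and 1.79 in Rspo1 Tom+ libraries. The Rspo1 Tom- libraries were the lowest, on 8 to 34 counts. Slco4c1 was higher in Rspo1 Tom+ than in Rspo1 Tom- cells by 1.31 (SE 0.35, edgeR adjusted p = 0.0140). This call was lost with the offset, at 0.56 (edgeR adjusted p = 0.227), and without the Rspo1 Tom- library of passage 10 or the Rspo1 Tom+ library of passage 5 or 10 (edgeR adjusted p = 0.0807, 0.0728 and 0.0577). Slco4a1, a carrier of thyroid hormone, had 3.54 to 9.13 CPM and passed in no group comparison, with 0.53 (edgeR adjusted p = 0.0846) for Rspo1 Tom+ against Rspo1 Tom- cells and 0.92 (edgeR adjusted p = 0.0110) with the offset. Slco1a5, a bile salt carrier, had 5 to 54 counts and values of 1.36 (edgeR adjusted p = 0.0943) in Rspo1 Tom+ and 1.29 (edgeR adjusted p = 0.0613) in Rspo1 Tom- against untreated cells; the second passed with the offset, at 1.61 (edgeR adjusted p = 0.0313). Slco2b1 is described with the passages, and Slco1a6 had 0 to 17 counts.

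Of 7 members that export organic anions other than at the canaliculus, 5 were tested. Abcc3 (ENSMUSG00000020865, chromosome 11, 94343295 to 94392997, minus strand), also named Mrp3, sends conjugates and bile salts through the basolateral membrane. Its level was 1072, 858 and 1091 CPM in untreated, 805, 568 and 898 CPM in Rspo1 Tom- and 515, 322 and 511 CPM in Rspo1 Tom+ libraries, on 9532 to 37903 counts. In each passage the order was untreated, Rspo1 Tom-, Rspo1 Tom+, from high to low, and the Rspo1 Tom+ libraries overlapped neither other group. In FPKM the group means were 198 ± 25.7, 153 ± 34.5 and 88.4 ± 21.1 (SD, n = 3). The log2 fold change of Abcc3 was -1.19 (SE 0.14, edgeR adjusted p = 0.000196) in Rspo1 Tom+ against untreated cells and -0.76 (SE 0.14, edgeR adjusted p = 0.00216) against Rspo1 Tom- cells, and -1.42 to -1.06 and -0.82 to -0.64 within passages. Both calls stood in all 13 alternatives, with -1.17 and -0.63 under the offset. Rspo1 Tom- against untreated cells gave -0.43 (SE 0.14, edgeR adjusted p = 0.0319), with overlapping libraries. That call was lost without the passage block (edgeR adjusted p = 0.224), without the filter on low counts (0.0726), in a fit of the 6 compared libraries (0.101), without the untreated library of passage 5 (0.0926) and without any 1 of the Rspo1 Tom- libraries (0.0857 to 0.133).

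Abcc4 (ENSMUSG00000032849, chromosome 14, 118482692 to 118706219, minus strand), or Mrp4, exports cyclic nucleotides, prostaglandins and bile salts. It stood at 184, 219 and 202 CPM in untreated, 143, 142 and 162 CPM in Rspo1 Tom- and 181, 149 and 161 CPM in Rspo1 Tom+ libraries. Untreated libraries were above all others, by a narrow margin over the Rspo1 Tom+ library of passage 5. The log2 fold change was -0.44 (SE 0.13, edgeR adjusted p = 0.0241) in Rspo1 Tom- and -0.30 (SE 0.13, edgeR adjusted p = 0.175) in Rspo1 Tom+ against untreated cells. The first call was lost with the offset, at -0.33 (edgeR adjusted p = 0.0640), in a fit of the 6 compared libraries (edgeR adjusted p = 0.0554), and without the untreated library of passage 10 or any 1 of the Rspo1 Tom- ones (edgeR adjusted p = 0.0537 to 0.117). Abcc1, Abcc5 and Abcc10 are further exporters of conjugates and nucleotide analogs. Abcc1 ranged over 66.9 to 88.5 CPM, Abcc5 over 51.5 to 98.6 and Abcc10 over 13.1 to 21.7, and none passed in a group comparison. Their smallest edgeR adjusted p-values were 0.296, 0.363 and 0.799, all for Rspo1 Tom- against untreated cells. The channel subunit Abcc8 had 11 to 39 counts and passed in none.

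The 4 tested exporters of bile and xenobiotics were led, by FPKM, by Abcb1a (ENSMUSG00000040584, chromosome 5, 8660077 to 8748575, plus strand), a P-glycoprotein that pumps drugs out of cells. It stood at 65.6, 42.4 and 35.9 CPM in untreated, 19.5, 15.1 and 6.82 CPM in Rspo1 Tom- and 32.4, 12.1 and 15.1 CPM in Rspo1 Tom+ libraries. Every untreated library was above all 6 R-spondin 1 libraries, and in each group the library of passage 5 was the highest. Against untreated cells Abcb1a had a log2 fold change of -1.84 (SE 0.23, edgeR adjusted p = 0.000286) in Rspo1 Tom- and -1.33 (SE 0.22, edgeR adjusted p = 0.00209) in Rspo1 Tom+ cells. Within passages the differences were -2.39 to -1.49 and -1.81 to -1.02, and the offset gave -1.49 and -1.36. The first call stood in all 13 alternatives. The second was lost only in the fit without the passage block, at -1.27 (edgeR adjusted p = 0.139). Rspo1 Tom+ against Rspo1 Tom- cells gave 0.51 (edgeR adjusted p = 0.0924).

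Abcb1b (ENSMUSG00000028970, chromosome 5, 8798147 to 8866315, plus strand) is the second P-glycoprotein of the mouse and lies beside Abcb1a. It stood at 23.6, 9.10 and 5.93 CPM in untreated, 15.8, 5.93 and 6.14 CPM in Rspo1 Tom- and 18.6, 8.67 and 5.29 CPM in Rspo1 Tom+ libraries. The groups overlapped at every level, and the libraries of passage 5 were the highest in all 3. No group comparison passed, with -0.20 (edgeR adjusted p = 0.538) and -0.39 (edgeR adjusted p = 0.108) against untreated cells. The ratio of Abcb1a to Abcb1b in FPKM was 2.40, 4.01 and 5.22 in untreated, 1.06, 2.19 and 0.957 in Rspo1 Tom- and 1.50, 1.20 and 2.46 in Rspo1 Tom+ libraries. Only the Rspo1 Tom+ library of passage 10 reached into the untreated range. The genes are paralogs and reads were 75 bases from 1 end. How alike their sequences are, and whether reads were assigned to the wrong paralog, was not tested. Of the exon bases of Abcb1a 10.1% lie under the opposite-strand Gm42686.

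Abcg2, which exports sulfated steroids, urate and drugs, stood at 11.8, 12.8 and 8.06 CPM in untreated, 9.02, 6.71 and 7.71 in Rspo1 Tom- and 8.17, 7.39 and 8.34 in Rspo1 Tom+ libraries. Values against untreated cells were -0.44 (edgeR adjusted p = 0.172) and -0.47 (edgeR adjusted p = 0.0757). For Rspo1 Tom+ against Rspo1 Tom- cells it moved from 0.034 (edgeR adjusted p = 0.903) to -0.80 (edgeR adjusted p = 0.0166) with the offset.

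Between passages fewer members, and fewer genes at large, were called than between groups. Abcb1b was the member called at both later passages. Abcb1b had a mean of 4.49 ± 0.826 FPKM at passage 5, 1.82 ± 0.387 at passage 6 and 1.32 ± 0.116 at passage 10 (SD over the 3 groups). Its 3 libraries of passage 5 were above the other 6. In the fit of group and passage the log2 fold change was -1.72 (SE 0.18, edgeR adjusted p = 0.000480) for passage 10 and -1.29 (SE 0.17, edgeR adjusted p = 0.00391) for passage 6, both against passage 5. Both calls stood in all 11 alternatives, with -1.68 and -1.29 under the offset. Members past the threshold numbered 5 of 37 for passage 10, 1 higher and 4 lower, against 9.07% of all genes (4.57% higher, 4.50% lower), and 1 of 37, lower, for passage 6, against 2.49% (1.16% higher, 1.33% lower). With the offset 7 and 2 members passed, against 11.9% and 3.39%. The passage 10 count was 1 without the Rspo1 Tom- or the Rspo1 Tom+ library of passage 5, 2 without the untreated library of passage 5 or 10, and 3 without the Rspo1 Tom- one of passage 10; the passage 6 count was 2 without the untreated or the Rspo1 Tom- library of passage 6. Each passage was also its own culture, and these cannot be told apart.

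Abcb1a was lower at passage 10 than at passage 5, at -1.13 (SE 0.22, edgeR adjusted p = 0.0114) and at -1.07 with the offset. The call was lost without the Rspo1 Tom- or the Rspo1 Tom+ library of passage 5 (edgeR adjusted p = 0.0577 and 0.0703). Slco2b1, an uptake carrier of sulfated steroids and drugs, had 125, 71 and 51 counts in untreated, 109, 32 and 34 in Rspo1 Tom- and 80, 47 and 21 in Rspo1 Tom+ libraries. Each library of passage 10 was below each of passage 5 once scaled, and the log2 fold change was -1.35 (SE 0.29, edgeR adjusted p = 0.0171), or -1.39 with the offset. This was lost without the untreated library of passage 5 or 10, the Rspo1 Tom- one of passage 5, or the Rspo1 Tom+ one of passage 5 or 10 (edgeR adjusted p = 0.0588 to 0.106). Against untreated cells Slco2b1 gave -0.91 (edgeR adjusted p = 0.0594) in Rspo1 Tom+ cells, and it passed with the offset, at -0.92 (edgeR adjusted p = 0.0466). Of the exon bases of Slco2b1 7.9% lie under the opposite-strand Gm15635 and 1.3% under the opposite-strand Gm34280.

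Abcg5, whose partner Abcg8 was near 0, was higher at passage 10 by 1.75 (SE 0.44, edgeR adjusted p = 0.0327) and by 1.75 with the offset, on 12 to 32 counts against 5 to 11 at passage 5. That call was lost without any 1 of the 6 libraries of these passages (edgeR adjusted p = 0.0671 to 0.175) and in DESeq2 (adjusted p = 0.0645). Hepatocyte markers also differed, with 3 of 4 tested lower at passage 10, as did Cd68 among the macrophage markers. Of the 6 proliferation markers 4 were higher at passage 6 and 2 at passage 10 than at passage 5. Their part in these results was not tested.

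**Figure D4:**
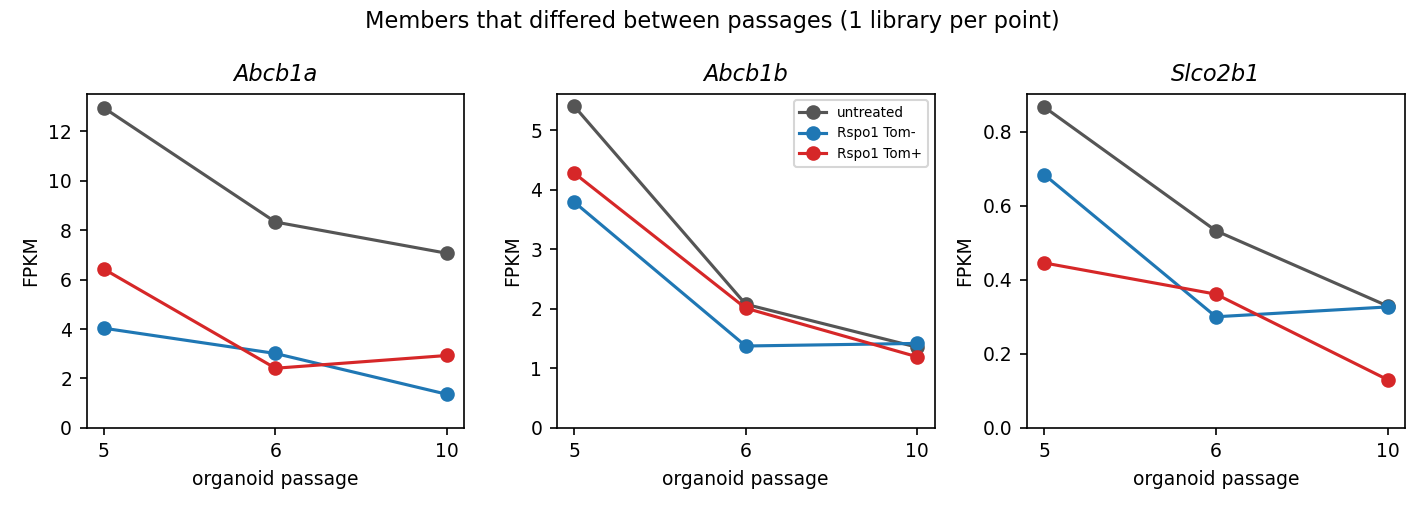
FPKM of Abcb1a, Abcb1b and Slco2b1 at passages 5, 6 and 10, 1 line per group and 1 library per point, axes from 0. All 3 lines of each gene are highest at passage 5; for Abcb1a the untreated line stays above the others, and for Abcb1b the 3 lines lie close together at passages 6 and 10.

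Over the 9 libraries the genes most like Abcb1a in log2 CPM, by Pearson correlation among all tested genes, were Npepps (0.981), Tiparp (0.977), Bmp4 (0.971), Tnfrsf23 (0.959) and Gcnt1 (0.959). Those most like Abcb1b were Plod2 (0.986), Fam217b (0.954), Ccbe1 (0.950), Nebl (0.941) and Sfxn1 (0.941). The lists do not share a gene. The 9 points share their library, passage and group, so these values are a description.

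Of 14 members that move lipids, 13 of subfamily A and Abcg4, 8 were tested. Abca3 (ENSMUSG00000024130, chromosome 17, 24351950 to 24410201, plus strand), which loads phospholipid into lamellar bodies, was the highest of them by FPKM. It stood at 241, 295 and 252 CPM in untreated, 216, 251 and 272 in Rspo1 Tom- and 205, 186 and 197 in Rspo1 Tom+ libraries. The Rspo1 Tom+ libraries lay below all others, with values of -0.42 (edgeR adjusted p = 0.0656) against untreated and -0.32 (edgeR adjusted p = 0.0775) against Rspo1 Tom- cells that missed the threshold; the first passed with the offset, at -0.39 (edgeR adjusted p = 0.0489). Of its exon bases 9.75% lie under the opposite-strand D330041H03Rik.

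Abca7, a phospholipid exporter, stood at 58.5, 44.3 and 67.9 CPM in untreated, 60.7, 50.9 and 80.1 in Rspo1 Tom- and 43.5, 42.2 and 50.8 in Rspo1 Tom+ libraries. It was lower in Rspo1 Tom+ than in Rspo1 Tom- cells, at -0.47 (SE 0.12, edgeR adjusted p = 0.0100) and at -0.40 (edgeR adjusted p = 0.0225) with the offset. The call was lost without the Rspo1 Tom- library of passage 10 or the Rspo1 Tom+ one of passage 5 or 10 (edgeR adjusted p = 0.0508 to 0.0764) and without the passage block (0.0927). Abca2, a lysosomal lipid transporter, stood at 86.6, 76.8 and 92.0 CPM in untreated, 96.8, 94.6 and 104 in Rspo1 Tom- and 82.2, 77.3 and 80.1 in Rspo1 Tom+ libraries, with a smaller difference of -0.30 (SE 0.11, edgeR adjusted p = 0.0431). That was lost without any 1 of the 6 compared libraries, without the passage block and without the filter on low counts (edgeR adjusted p = 0.0575 to 0.202).

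Abca5, another lysosomal member, has a transcript of 39.8% GC. It stood at 36.3, 28.9 and 31.3 CPM in untreated, 16.7, 12.8 and 11.2 in Rspo1 Tom- and 29.4, 18.7 and 27.8 in Rspo1 Tom+ libraries. The Rspo1 Tom- libraries were below all others, at -1.25 (SE 0.15, edgeR adjusted p = 0.000286) against untreated cells, and Rspo1 Tom+ cells were above them by 0.89 (SE 0.15, edgeR adjusted p = 0.00150). With the offset these became -0.30 (edgeR adjusted p = 0.0877) and -0.053 (edgeR adjusted p = 0.767). Abca8b, of 42.7% GC, gave 0.72 (SE 0.26, edgeR adjusted p = 0.0469) for Rspo1 Tom+ against Rspo1 Tom- cells and -0.013 (edgeR adjusted p = 0.971) with the offset. Its libraries overlapped, at 3.19, 8.44 and 2.63 CPM in Rspo1 Tom- and 7.80, 7.62 and 5.68 CPM in Rspo1 Tom+ cells. The Rspo1 Tom- library of passage 6 stood apart from the other libraries of its group, and without it the value was 1.11; without the libraries of passage 5 or 10 of either group the call was lost (edgeR adjusted p = 0.150 to 0.265). It was also lost without the passage block and with upper-quartile scaling or DESeq2 size factors (edgeR adjusted p = 0.327, 0.0619 and 0.0508).

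Abca6 and Abca8a passed on low counts and are named after their values were seen. Abca8a had 20, 56 and 25 counts in untreated, 8, 12 and 3 in Rspo1 Tom- and 6, 18 and 16 in Rspo1 Tom+ libraries, with -1.87 (edgeR adjusted p = 0.00823) and -1.38 (edgeR adjusted p = 0.0487) against untreated cells. Abca6 had 14, 15 and 13 counts in untreated, 3, 6 and 0 in Rspo1 Tom- and 20, 10 and 6 in Rspo1 Tom+ libraries, and -2.11 (edgeR adjusted p = 0.0317) in Rspo1 Tom- against untreated cells. The Rspo1 Tom+ call of Abca8a was lost without any 1 of the 6 compared libraries but the Rspo1 Tom+ one of passage 10 (edgeR adjusted p = 0.0751 to 0.265), and its Rspo1 Tom- call without the Rspo1 Tom- library of passage 10 (0.0502). The call of Abca6 was lost without the untreated or the Rspo1 Tom- library of passage 5 or 10 (edgeR adjusted p = 0.0669 to 0.177), and without the Rspo1 Tom- library of passage 6 its value was -3.14. Without the passage block none of the 3 passed (edgeR adjusted p = 0.0623 and 0.278 for Abca8a, 0.0840 for Abca6). With the offset the Rspo1 Tom- values were -1.34 (edgeR adjusted p = 0.0502) and -1.64 (edgeR adjusted p = 0.104).

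All 4 mitochondrial members were tested. Abcb6, linked to porphyrin transport, stood at 19.2, 24.8 and 19.3 CPM in untreated, 28.9, 29.4 and 29.8 CPM in Rspo1 Tom- and 17.9, 19.5 and 20.8 CPM in Rspo1 Tom+ libraries, with the Rspo1 Tom- ones highest. The log2 fold change was 0.48 (SE 0.13, edgeR adjusted p = 0.0158) in Rspo1 Tom- against untreated cells and -0.60 (SE 0.13, edgeR adjusted p = 0.00508) in Rspo1 Tom+ against Rspo1 Tom- cells. Neither passed with the offset, at 0.23 (edgeR adjusted p = 0.218) and -0.33 (edgeR adjusted p = 0.0830). The first was also lost without the untreated or the Rspo1 Tom- library of passage 5 or 10 (edgeR adjusted p = 0.0619 to 0.0946). Of its exon bases 55.2% are shared with Gm29253 on the same strand, so its counts are uncertain.

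Abcb8, a carrier of the inner membrane tied to iron export, stood at 69.1, 76.9 and 72.4 CPM in untreated, 84.9, 94.9 and 104 CPM in Rspo1 Tom- and 76.9, 82.0 and 81.1 CPM in Rspo1 Tom+ libraries. The Rspo1 Tom- libraries were above the untreated ones without overlap. Abcb8 was higher in Rspo1 Tom- cells by 0.37 (SE 0.11, edgeR adjusted p = 0.0200), and at -0.00080 (edgeR adjusted p = 0.997) with the offset. The call was also lost in a fit of the 6 compared libraries (edgeR adjusted p = 0.0739) and without the untreated or Rspo1 Tom- library of passage 5 or 10 (0.0521 to 0.109). Abcb10, which stabilises iron import during heme synthesis, ranged over 28.4 to 38.8 CPM and passed in no comparison. Of its exon bases 10.3% lie under the opposite-strand Gm45890.

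Abcd3 (ENSMUSG00000028127, chromosome 3, 121758774 to 121815302, minus strand), which brings branched and long acyl chains and bile acid intermediates into peroxisomes, was by FPKM the highest of the 4 peroxisomal and lysosomal members. It stood at 153, 140.4 and 126 CPM in untreated, 90.6, 82.5 and 92.9 CPM in Rspo1 Tom- and 109, 93.3 and 103 CPM in Rspo1 Tom+ libraries. No R-spondin 1 library reached the lowest untreated one. Against untreated cells Abcd3 had a log2 fold change of -0.66 (SE 0.12, edgeR adjusted p = 0.00171) in Rspo1 Tom- and -0.46 (SE 0.11, edgeR adjusted p = 0.0226) in Rspo1 Tom+ cells, -0.77 to -0.44 and -0.59 to -0.29 within passages, and -0.43 and -0.49 with the offset. The first call stood in all 13 alternatives. The second was lost without the passage block (edgeR adjusted p = 0.0633), without the untreated library of passage 5 (0.130) and without any 1 of the Rspo1 Tom+ libraries (0.0873 to 0.149). Abcd4, a lysosomal cobalamin transporter, ranged over 13.7 to 28.8 CPM, and the lysosomal peptide carrier Abcb9 over 1.05 to 2.75 CPM. Neither passed in a group comparison; the value of Abcb9 for Rspo1 Tom+ against Rspo1 Tom- cells was -0.68 (edgeR adjusted p = 0.0557).

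The 4 soluble ATPases are not transporters, though they carry ABC names. Abce1, which splits ribosomes after termination, has a transcript of 40.3% GC and stood at 146, 110.2 and 89.4 CPM in untreated, 79.8, 59.7 and 39.2 CPM in Rspo1 Tom- and 134, 105 and 128 CPM in Rspo1 Tom+ libraries. The Rspo1 Tom- libraries were below all others. Abce1 was lower in them than in untreated cells, at -0.97 (SE 0.17, edgeR adjusted p = 0.00175), and Rspo1 Tom+ cells were above them by 1.09 (SE 0.17, edgeR adjusted p = 0.00101). With the offset both values were smaller and still passed, at -0.42 (edgeR adjusted p = 0.0450) and 0.53 (edgeR adjusted p = 0.0191).

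Abcf1, Abcf2 and Abcf3 act in translation and ribosome quality control. Abcf2 stood at 96.8, 81.8 and 70.6 CPM in untreated, 121, 99.0 and 112 CPM in Rspo1 Tom- and 92.0, 87.4 and 86.7 CPM in Rspo1 Tom+ libraries. Rspo1 Tom- libraries were above untreated ones without overlap, a difference of 0.42 (SE 0.12, edgeR adjusted p = 0.0192) that was 0.071 (edgeR adjusted p = 0.650) with the offset. It was lost without the passage block (edgeR adjusted p = 0.0568), in a fit of the 6 compared libraries (0.0602) and without the untreated library of passage 10 or the Rspo1 Tom- one of passage 5 or 10 (0.0765 to 0.109). Abcf3 stood at 58.4, 55.8 and 48.0 CPM in untreated, 62.8, 67.2 and 61.5 CPM in Rspo1 Tom- and 52.5, 53.0 and 47.2 CPM in Rspo1 Tom+ libraries. It was lower in Rspo1 Tom+ than in Rspo1 Tom- cells, at -0.33 (SE 0.11, edgeR adjusted p = 0.0307) and at -0.024 (edgeR adjusted p = 0.868) with the offset; the call was lost without any 1 of the 6 compared libraries but the Rspo1 Tom- one of passage 6, and without the passage block (edgeR adjusted p = 0.0588 to 0.116). Abcf1, the highest of the 4 by FPKM, stood at 167, 123 and 135 CPM in untreated, 118, 138 and 134 CPM in Rspo1 Tom- and 158, 152 and 156 CPM in Rspo1 Tom+ libraries. It passed in no group comparison, and with the offset it gave -0.46 (edgeR adjusted p = 0.0268) in Rspo1 Tom- against untreated and 0.62 (edgeR adjusted p = 0.00800) in Rspo1 Tom+ against Rspo1 Tom- cells.

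**Figure D5:**
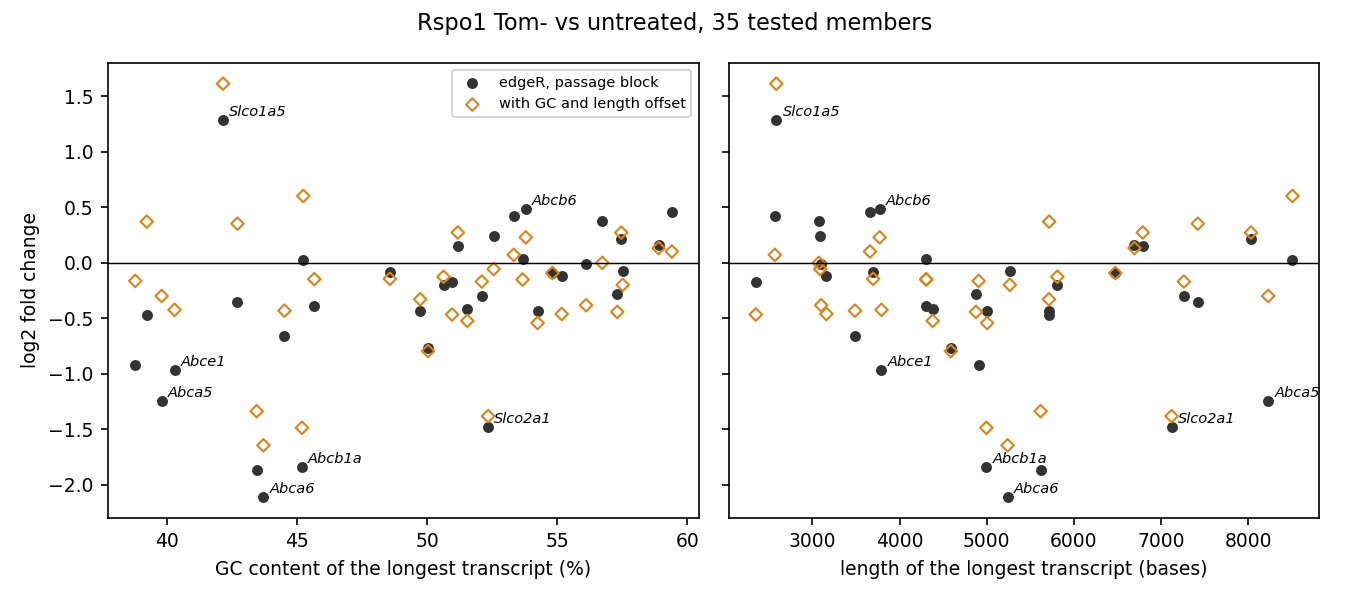
Log2 fold change of Rspo1 Tom- against untreated cells for 35 tested members, by GC content (left) and length (right) of the longest transcript, black without and orange with the offset. Abca5 and Abce1, at 39.8% and 40.3% GC, move toward 0 with the offset, and Slco2a1 at 52.3% goes from -1.48 to -1.38.

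Other carriers of bile acids, carnitine, nucleosides and lipids carry names outside Abc and Slco. Of 16 such genes 10 were tested: 1 was higher and 4 lower in Rspo1 Tom+ than in untreated cells, 1 higher and 3 lower in Rspo1 Tom- than in untreated cells, and 3 higher and 2 lower in Rspo1 Tom+ than in Rspo1 Tom- cells. Under the offset these counts were 1 and 4, 1 and 3, and 2 and 2, and in the last only 2 of the 5 first calls were among them. Of all genes tested 13.2%, 35.5% and 38.9% were called in these comparisons, and 15.7%, 23.0% and 23.7% under the offset. Slc10a2, the apical bile acid carrier of duct cells, stood at 60.7 ± 6.20 CPM in untreated, 24.4 ± 4.40 in Rspo1 Tom- and 34.7 ± 7.44 in Rspo1 Tom+ cells (SD, n = 3). It was lower in both R-spondin 1 groups than in untreated cells, at -1.32 (SE 0.18, edgeR adjusted p = 0.000403) in Rspo1 Tom- and -0.82 (SE 0.17, edgeR adjusted p = 0.00999) in Rspo1 Tom+ cells, which the offset took to -0.47 (edgeR adjusted p = 0.0175) and -0.77 (edgeR adjusted p = 0.00142). Rspo1 Tom+ against Rspo1 Tom- cells gave 0.51 (SE 0.18, edgeR adjusted p = 0.0413), which was -0.30 (edgeR adjusted p = 0.0961) with the offset. Slc22a5, the carnitine carrier, was lower in Rspo1 Tom+ cells, at -0.62 (SE 0.11, edgeR adjusted p = 0.00420) against untreated and -0.56 (SE 0.11, edgeR adjusted p = 0.00374) against Rspo1 Tom- cells. Atp8b1, a flippase of the apical membrane, was lower than in untreated cells, at -1.09 (SE 0.13, edgeR adjusted p = 0.000294) in Rspo1 Tom- and -0.51 (SE 0.13, edgeR adjusted p = 0.0268) in Rspo1 Tom+ cells; with the offset the first was -0.66 (edgeR adjusted p = 0.00267). Slc29a1, a nucleoside carrier, was the one higher in both, by 1.49 (SE 0.14, edgeR adjusted p = 0.000137) and 1.73 (SE 0.14, edgeR adjusted p = 1.57e-05). The basolateral bile acid exporter Slc51a had 116 to 228 counts and passed in none, and its partner Slc51b had 0 to 4.

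Among 19 regulators of transporter genes 18 were in the files and 16 were tested: 1 was higher and 5 lower in Rspo1 Tom+ than in untreated cells, 4 higher and 3 lower in Rspo1 Tom- than in untreated cells, and 1 higher and 7 lower in Rspo1 Tom+ than in Rspo1 Tom- cells. Over all genes the shares called were 13.2%, 35.5% and 38.9%, and with the offset 15.7%, 23.0% and 23.7%. Under the offset 1 was higher and 4 lower, then 1 higher and 6 lower, and last 3 higher and 0 lower. None of the 7 lower calls of the last comparison therefore passed. Against untreated cells 5 of 6 first calls in Rspo1 Tom+ and 4 of 7 in Rspo1 Tom- cells also passed with the offset. Offset values of Nr1h4, Hnf4a, Ppara and Nr1i2 are not given here. Nr1h4, the bile acid receptor FXR, stood at 23.8 ± 1.85 CPM in untreated, 13.0 ± 0.999 in Rspo1 Tom- and 11.4 ± 1.54 in Rspo1 Tom+ cells (SD, n = 3). It was lower than in untreated cells, at -0.87 (SE 0.15, edgeR adjusted p = 0.00135) in Rspo1 Tom- and -1.06 (SE 0.15, edgeR adjusted p = 0.000619) in Rspo1 Tom+ cells. Hnf4a, a hepatocyte and duct transcription factor, gave -0.47 (SE 0.12, edgeR adjusted p = 0.0112) and -0.56 (SE 0.12, edgeR adjusted p = 0.00946) in the same order, and Ppara, a fatty acid sensor with 19 to 109 counts, gave -1.13 (SE 0.31, edgeR adjusted p = 0.0158) and -1.72 (SE 0.32, edgeR adjusted p = 0.00414). Nr1i2, the xenobiotic receptor PXR, was lower in Rspo1 Tom+ than in untreated cells, at -1.12 (SE 0.30, edgeR adjusted p = 0.0329) on 21 to 122 counts. Ahr, the aryl hydrocarbon receptor, was higher in Rspo1 Tom+ cells, by 0.70 (SE 0.14, edgeR adjusted p = 0.00806) against untreated and 0.78 (SE 0.14, edgeR adjusted p = 0.00216) against Rspo1 Tom- cells, the second 0.42 (edgeR adjusted p = 0.0343) with the offset. Nr1i3, the receptor CAR, was higher in Rspo1 Tom- than in untreated cells by 0.76 (SE 0.13, edgeR adjusted p = 0.00161) and, with the offset, by 0.44 (edgeR adjusted p = 0.0211).

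Of 4 ABC-related genes with other names, 2 were higher in Rspo1 Tom+ than in untreated cells, 1 in Rspo1 Tom- than in untreated cells and 1 in Rspo1 Tom+ than in Rspo1 Tom- cells, and none was lower. Under the offset 2, 2 and 1 were higher in the same order, again with none lower. Shares called over all genes were 13.2%, 35.5% and 38.9%, and 15.7%, 23.0% and 23.7% under the offset. Cftr, the chloride channel of duct secretion and an ABC protein by structure, stood at 4.49 ± 0.348 CPM in untreated, 4.76 ± 1.66 in Rspo1 Tom- and 13.5 ± 1.31 in Rspo1 Tom+ cells (SD, n = 3). It was higher in Rspo1 Tom+ than in untreated cells by 1.59 (SE 0.19, edgeR adjusted p = 0.000233) and than in Rspo1 Tom- cells by 1.53 (SE 0.19, edgeR adjusted p = 0.000367). With the offset the second value was 0.77 (edgeR adjusted p = 0.00810), and Rspo1 Tom- against untreated cells moved from 0.057 (edgeR adjusted p = 0.846) to 0.81 (edgeR adjusted p = 0.00729), past the threshold. Tap1, a peptide transporter of antigen presentation, was higher by 0.90 (SE 0.15, edgeR adjusted p = 0.00144) in Rspo1 Tom- and 0.52 (SE 0.15, edgeR adjusted p = 0.0477) in Rspo1 Tom+ than in untreated cells. Tap2, its partner, gave 0.11 and -0.10 (edgeR adjusted p = 0.647 and 0.789).

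The authors' deposited table listed 31 members for each comparison. By its adjusted p-values 7 members differed between Rspo1 Tom+ and untreated cells, 1 higher and 6 lower, against 13.9% of 15807 genes in the authors' deposited table. These 7 are not all those called here. The authors' deposited table called Abca3 (its adjusted p = 0.0229), which missed the threshold here, and did not list Abca8a. In that table Abca3 and Abcf2 were also called in Rspo1 Tom+ against Rspo1 Tom- cells (its adjusted p = 0.0159 and 0.0170), and both missed the threshold here. Slco4c1, called here in that comparison, was not listed. Abcb8, called here in Rspo1 Tom- against untreated cells, missed the threshold in the authors' deposited table (its adjusted p = 0.0583). Abca6 and Abca8a, also called here in that comparison, were not listed. For Rspo1 Tom- against untreated cells the authors' deposited table called 11, 2 higher and 9 lower, against 27.0%. For Rspo1 Tom+ against Rspo1 Tom- cells the authors' deposited table called 12, 5 higher and 7 lower, against 44.1%. For Slco2a1 the authors' deposited table gave log2 values of -1.37 (SE 0.14, adjusted p = 3.44e-19) in Rspo1 Tom+ and -1.46 (SE 0.16, adjusted p = 3.88e-18) in Rspo1 Tom- against untreated cells. For Abcc3 the authors' deposited table had -1.18 (SE 0.13, adjusted p = 1.57e-17) in Rspo1 Tom+ against untreated cells, and for Slco5a1 it had 1.46 (SE 0.32, adjusted p = 7.48e-05).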

How the data were processed

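RNA of sorted cells was sequenced as single-end reads, 1 library per group and passage, with total counts of 23423979 to 37351448. Each library's file holds raw counts per Ensembl gene and FPKM, both made by the authors, per the file headers. The submitters' processing notes name Trimmomatic 0.35, FastQC 0.11.2, STAR 2.5.1b, featureCounts, DESeq2 and GRCm38, with no role or order; the strand setting and the annotation are not given in the sources used here. The authors' deposited tables of comparisons give a log2 fold change with its SE, p-values and a test statistic (a score) per gene. FPKM served only to compare levels between genes.

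Counts were tested with edgeR 4.0.16 (R 4.3.3) by quasi-likelihood in 1 fit of all 9 libraries with group and passage as terms, TMM scaling and filterByExpr (minimum count 10, total 15), which kept 17011 genes, and p-values were adjusted by Benjamini-Hochberg over them. Adjusted p under 0.05 was called. CPM are TMM-scaled. The fit was tested on simulated data. Passage was kept as the replicate block: deviations from group means correlated at 0.123 to 0.573 in the 9 pairs of libraries of 1 passage, and at -0.476 to 0.0826 in the 18 other pairs. GC content and length came from the longest GENCODE M21 transcript (matched for 17001 genes) and entered as an offset per library, a spline with 5 degrees of freedom. Alternatives were no block, DESeq2 1.42.0, other scalings, no filter, the 6 compared libraries alone and leaving out each library.

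Named with values were members called between groups with a mean log2 CPM above 0, the 6 highest by FPKM, known bile carriers, and members called between passages. Of the genes counted, 2 tested members and 1 peroxisome gene are not reported here by name. The members and lists were chosen with earlier results of these data known.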

Additional observations from a re-analysis of the deposited data

How the results depend on the processing

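With no replicate block the genes called numbered 886 for Rspo1 Tom+ against untreated cells (3 members), 4141 for Rspo1 Tom+ against Rspo1 Tom- cells (7 members) and 3724 for Rspo1 Tom- against untreated cells; no fit without passage was run for the passages. With the GC and length offset beside the block, 4021 and 3912 genes were called in the last 2 of these comparisons, 9 members in Rspo1 Tom- against untreated cells and 2 at passage 6. Under that offset the sign turned for Abca5 (-0.053) and Abca8b (-0.013) in Rspo1 Tom+ against Rspo1 Tom- cells and for Abcb8 (-0.00080) in Rspo1 Tom- against untreated cells. A fit of the 6 compared libraries called 9 members in Rspo1 Tom- against untreated cells. Without the filter on low counts 2784 genes were called at passage 10 and 1193 genes with 6 members at passage 6, where DESeq2 called 851 genes and 3 members. Leaving out 1 library at a time gave 1112 to 2178 genes and 4 to 7 members for Rspo1 Tom+ against untreated cells, 3674 to 7029 and 6 to 13 for Rspo1 Tom+ against Rspo1 Tom- cells, 3229 to 7427 and 7 to 16 for Rspo1 Tom- against untreated cells, 405 to 702 and 1 to 4 at passage 10, and 105 to 846 and 1 to 2 at passage 6. The cause of these changes was not tested. Depth limits the members under 60 counts, whose calls rest on few reads.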

Other observations

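Genes of the compartments that some members serve were read from lists of related function. Of 16 heme and iron-sulfur genes, all tested, 9 were higher and none lower in Rspo1 Tom- than in untreated cells (median log2 fold change 0.38), and 2 were higher and 7 lower in Rspo1 Tom+ than in Rspo1 Tom- cells, with a median of -0.27. In Rspo1 Tom+ against untreated cells 1 was higher and none lower. Over all genes the shares called in these comparisons were 35.5%, 38.9% and 13.2%, and 23.0%, 23.7% and 15.7% with the GC and length offset. With an offset for GC content and length 5 were higher and 0 lower in the first comparison, 1 higher and 1 lower in the second, and 1 higher and 0 lower in the third. Gfer, a sulfhydryl oxidase of the mitochondrial space, was higher in Rspo1 Tom- than in untreated cells by 0.85 (SE 0.14, edgeR adjusted p = 0.00130) and with the offset by 0.46 (edgeR adjusted p = 0.0204). Alad, an early enzyme of heme synthesis, was higher by 0.47 (SE 0.11, edgeR adjusted p = 0.00976) but gave 0.055 (edgeR adjusted p = 0.720) with the offset. Alas1, the first enzyme of the path, gave 0.24 (edgeR adjusted p = 0.114). Cpox was the one higher in Rspo1 Tom+ than in untreated cells, by 0.58 (SE 0.13, edgeR adjusted p = 0.0115).

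Of 17 peroxisome genes, all tested, none was higher and 2 were lower in Rspo1 Tom+ than in untreated cells, with a median of -0.05, 5 were higher and 3 lower in Rspo1 Tom- than in untreated cells, with a median of 0.27, and 2 were higher and 7 lower in Rspo1 Tom+ than in Rspo1 Tom- cells. Under the offset the counts were 0 higher and 2 lower, 3 higher and 2 lower, and 1 higher and 4 lower. Among all genes tested the shares called in the same order were 13.2%, 35.5% and 38.9%, and 15.7%, 23.0% and 23.7% under the offset. Cat, the catalase, was lower than in untreated cells, at -0.48 (SE 0.11, edgeR adjusted p = 0.0158) in Rspo1 Tom+ and -0.49 (SE 0.11, edgeR adjusted p = 0.00694) in Rspo1 Tom- cells. Of 7 scaffold genes of the apical membrane, 1 was higher and 2 lower in Rspo1 Tom+ than in untreated cells, none higher and 2 lower in Rspo1 Tom- than in untreated cells, and 2 higher and none lower in Rspo1 Tom+ than in Rspo1 Tom- cells. Under that offset the counts were the same in the first 2 comparisons and 2 higher and 1 lower in the third. The shares over all genes are those given for the peroxisome genes. Ezr, the ezrin that ties apical membrane to actin, was lower in Rspo1 Tom+ than in untreated cells, at -0.72 (SE 0.13, edgeR adjusted p = 0.00454), and Msn, its relative moesin, was higher by 0.81 (SE 0.12, edgeR adjusted p = 0.00123).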
